A study of Mus musculus with 15 samples.

Results

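The 10 genes described here, which control or mark the epithelial-mesenchymal transition, were followed through 3 groups of mouse colon libraries. They were chosen by symbol: Snai1, Snai2, Zeb1, Zeb2, Twist1 and Twist2, which encode transcription factors that drive the transition; Vim and Cdh2, which mark mesenchymal cells; and Esrp1 and Grhl2, which maintain the epithelial state. All 10 were found among the 22063 genes measured, each in 1 row. The groups were C57BL/6 mice labelled wild type that served as blank controls (5 libraries), mice with colorectal cancer induced by azoxymethane, a carcinogen, and dextran sulfate sodium, which injures the colon lining (AOM/DSS, 5 libraries), and model mice treated with WMW-H (5 libraries). Wumei Wan, a herbal formula, is the subject of the series, and the question put to the WMW-H arm was whether it changes the disease in the model. Although the samples are labelled as epithelial cells of the colon, no step that isolates such cells is described in the protocols used here. Dose, schedule, age and the meaning of "-H" are not given in the sources used here.

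The epithelial-mesenchymal transition is the process by which epithelial cells lose junctions and polarity and gain the motility and matrix production of mesenchymal cells. The SNAI, ZEB and TWIST factors bind E-box sequences in the promoters of epithelial genes such as Cdh1, the gene of E-cadherin, and repress them. ESRP1 is a splicing factor that keeps the epithelial isoforms of many transcripts, and GRHL2 is a transcription factor that activates junction genes and represses Zeb1. In the colon, the same drivers and Vim are also normally expressed by fibroblasts, endothelium and leukocytes of the lamina propria, so their level in bulk RNA need not come from epithelium.

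Promoter windows are shown for Snai1 and Vim, the members that rose most in AOM/DSS, and for Twist1, which was highest in WMW-H. Each window runs from 250 bases before to 50 bases after the RefSeq start (RefSeq, GRCm38.p6), on the plus strand, 5′ to 3′, with capitals for the motif matches named below. The windows are chr2:167537945-167538244 for Snai1, chr2:13574061-13574360 for Vim and chr12:33957421-33957720 for Twist1.
Snai1: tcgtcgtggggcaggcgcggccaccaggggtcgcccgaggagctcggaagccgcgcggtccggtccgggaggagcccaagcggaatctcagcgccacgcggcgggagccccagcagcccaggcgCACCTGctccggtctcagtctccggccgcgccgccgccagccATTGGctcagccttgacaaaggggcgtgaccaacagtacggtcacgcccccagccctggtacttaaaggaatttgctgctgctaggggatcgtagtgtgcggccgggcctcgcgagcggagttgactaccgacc
Vim: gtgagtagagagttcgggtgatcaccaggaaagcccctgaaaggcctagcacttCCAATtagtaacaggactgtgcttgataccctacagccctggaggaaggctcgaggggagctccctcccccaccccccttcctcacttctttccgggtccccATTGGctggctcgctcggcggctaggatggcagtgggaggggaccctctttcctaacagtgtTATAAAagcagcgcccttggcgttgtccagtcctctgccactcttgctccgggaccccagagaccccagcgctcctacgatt
Twist1: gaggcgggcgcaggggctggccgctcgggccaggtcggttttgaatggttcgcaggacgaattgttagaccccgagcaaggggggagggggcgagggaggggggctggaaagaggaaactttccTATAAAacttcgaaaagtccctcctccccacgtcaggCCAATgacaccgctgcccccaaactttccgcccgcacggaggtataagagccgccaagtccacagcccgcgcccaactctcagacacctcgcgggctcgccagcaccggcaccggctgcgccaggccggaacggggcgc
The motifs searched, on both strands, were the E-box CACCTG bound by SNAI and ZEB factors, the CCAAT box, the TATA box TATAAA, the AP-1 site TGACTCA and the TCF/LEF site CTTTGAT. The Snai1 window held CACCTG at position -126 from the start and a CCAAT box on the other strand at -84. The Vim window held CCAAT boxes at -196 and, on the other strand, at -94, and TATAAA at -32. The Twist1 window held TATAAA at -126 and CCAAT at -89. Among 32851 windows of the same length, 20.2% held CACCTG, 37.4% a CCAAT box and 13.6% TATAAA, so these matches are common and describe the letters only. The AP-1 site, in 5.2% of windows, and the TCF/LEF site, in 3.7%, were in none of the 3. RefSeq windows were matched for 5 of the 10 genes, the other 2 being Twist2 and Zeb2.

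Levels are given in FPKM, fragments counted per kilobase of transcript and corrected for depth, as the authors deposited them, and differences as fitted changes in log2(FPKM + 1), which understate the change of low genes. A gene was tested where at least 5 libraries held at least 1 FPKM, and called where the adjusted p of the fit over all 12917 such genes was below 0.05. Of the 10 members, 8 were tested. Twist1 and Twist2 lay under the limit, and two-sided exact permutation tests of 5 against 5 libraries were used for them, which cannot go below p = 0.0079. The labels do not say that the libraries of a group came from separate animals, so every p measures the spread between these libraries only.

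The libraries held 16300000 to 21200000 fragments. In each of the 30 pairs of libraries of 1 group, the squared difference over genes with 1 annotated transcript was above that of counting alone. It was 2.4 to 37.74 times as large in the mean and 1.85 to 3.71 times in the median, so no pair was treated as 1 library. This spread cannot tell libraries of separate animals from separate preparations of 1 source. WMW-H replicate 3 stood apart from its group through mitochondrial transcripts, with mt-Co1 at 28478 FPKM against 23263 to 23893 in the other 4, and every member kept its call without it. Epithelial markers were abundant, with 6 of them summing to 4598 to 4639 FPKM in controls, 4421 to 4460 in AOM/DSS and 3904 to 4135 in WMW-H. Krt8, given below, was the largest part of these sums. In AOM/DSS against control 2 of the 6 were called higher and 4 lower, where 45.5% and 20.6% of all tested genes were. In WMW-H against AOM/DSS 3 of the 6 were called higher and 2 lower, where 25.9% and 40.9% of all tested genes were. Markers of other cells were present too. Smooth muscle markers summed to 1531 to 1636 FPKM over all libraries, fibroblast markers to 207 to 213 in controls, 240 to 251 in AOM/DSS and 305 to 313 in WMW-H, and macrophage markers to 281 to 300, 625 to 634 and 491 to 530. Endothelial markers summed to 42.7 to 45.8, 62.2 to 64.6 and 59.9 to 62.3 FPKM in the same order. The fibroblast markers did not move as 1. In WMW-H against AOM/DSS 4 of the 7 were called higher and 3 lower, where 25.9% and 40.9% of all tested genes were. Genes foreign to the colon differed as well: 5 exocrine pancreas genes summed to 13240 to 13580, 3001 to 3046 and 4978 to 5405 FPKM, and 4 seminal vesicle genes to 2176 to 2306 FPKM in AOM/DSS and at most 3.82 elsewhere. How far any of these bear on the members was not tested, and in bulk RNA fewer cells of a type and less RNA per cell cannot be told apart.

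In AOM/DSS against control, 6 of the 8 tested members were called, 4 higher (Snai1, Vim, Esrp1 and Grhl2) and 2 lower (Zeb1 and Cdh2). Over all tested genes 66.1% were called, 45.5% higher and 20.6% lower, so the members' count was near that of any gene. The groups did not overlap for 6 of the 8, and for 52.9% of all tested genes. In WMW-H against AOM/DSS, 5 were called, 1 higher (Cdh2) and 4 lower (Snai1, Vim, Esrp1 and Grhl2), where 66.8% of all genes were called, 25.9% higher and 40.9% lower. Here 4 of the 8 did not overlap, against 51.2% of all genes. In WMW-H against control, 4 were called, Snai1 and Vim higher and Cdh2 and Esrp1 lower, where 59.5% of all genes were called, 35.4% higher and 24.1% lower. The groups did not overlap for 3 of the 8, against 42.3% of all genes. The comparisons share libraries, so a rise in the model and a lower value after WMW-H both use the same AOM/DSS libraries.

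**Figure D1:**
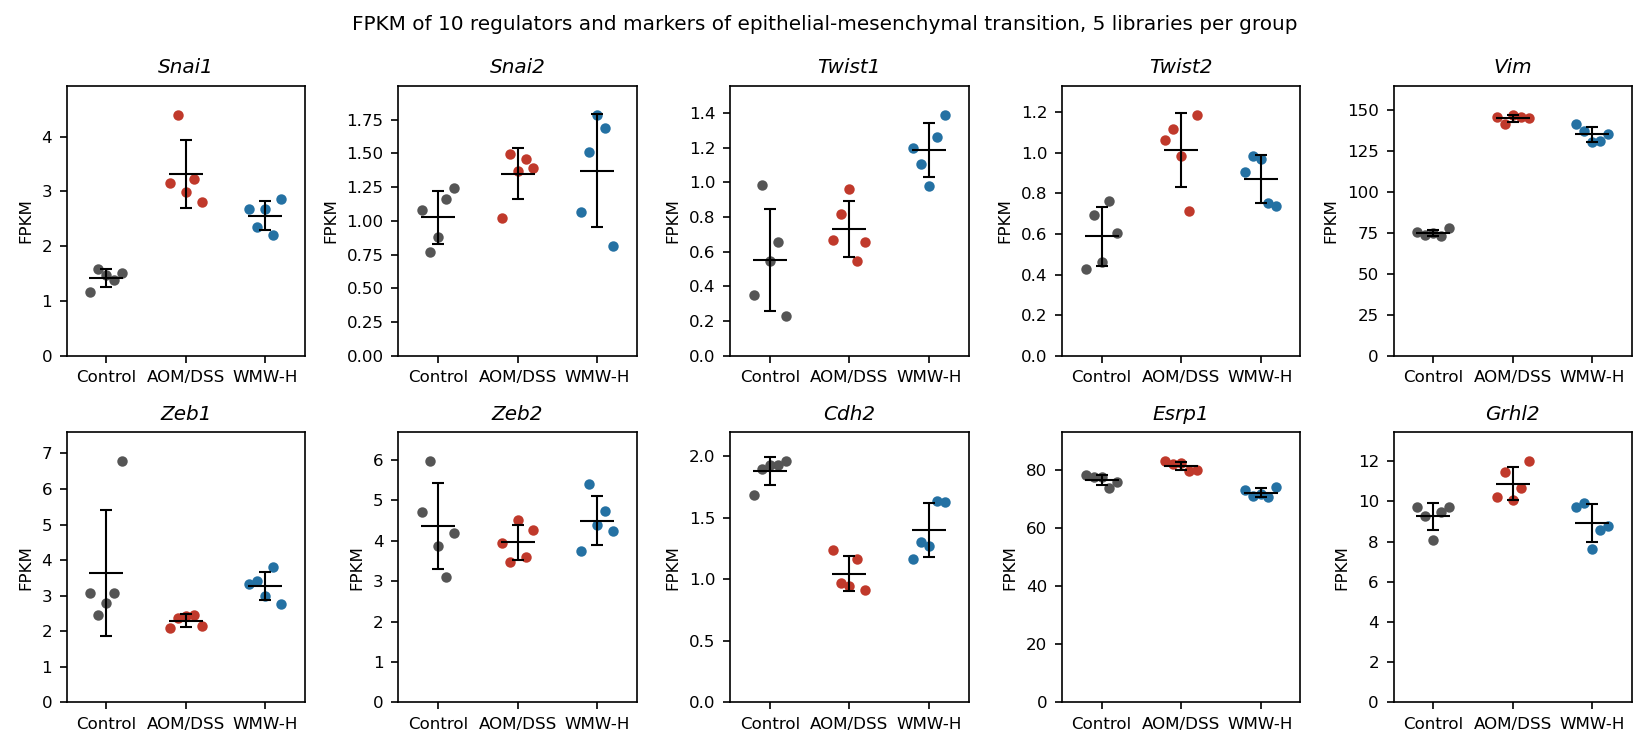
FPKM of the 10 genes in each library (dots, 5 per group), 1 panel per gene with its own vertical axis; bars show the mean and SD. Vim and Snai1 are high in AOM/DSS and WMW-H, Cdh2 is high in control, and control replicate 5 stands at 6.78 FPKM for Zeb1.

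Snai1 (ENSMUSG00000042821) encodes SNAIL, an early repressor of E-cadherin. Its levels were 1.17, 1.59, 1.48, 1.38 and 1.515 FPKM in the 5 controls, 3.15, 4.39, 2.98, 3.23 and 2.81 in AOM/DSS, and 2.68, 2.35, 2.68, 2.21 and 2.86 in WMW-H. All AOM/DSS and all WMW-H libraries lay above every control, whereas WMW-H replicate 5 lay within the AOM/DSS range. The mean rose from 1.43 ± 0.16 (SD, n = 5) in control to 3.31 ± 0.63 in AOM/DSS, 2.32-fold, a log2 change of 0.82 (SE 0.09, limma adjusted p = 3.11e-07). In WMW-H it was 2.56 ± 0.27, lower than in AOM/DSS by a log2 change of -0.27 (SE 0.09, limma adjusted p = 0.012) and higher than in control by 0.55 (limma adjusted p = 4.31e-05). The fall in WMW-H did not pass after quantile normalization (-0.20, limma adjusted p = 0.0633). These values rest on 40 to 46 fragments per control library, 81 to 144 in AOM/DSS and 61 to 87 in WMW-H.

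Snai2 (ENSMUSG00000022676) encodes SLUG, the close relative of SNAIL. It read 1.08, 0.767, 0.882, 1.16 and 1.24 FPKM in control, 1.02, 1.49, 1.37, 1.46 and 1.39 in AOM/DSS, and 1.06, 1.51, 1.78, 1.69 and 0.816 in WMW-H. The groups overlapped, and WMW-H replicates 1 and 5 were below most controls. None of the comparisons was called. The log2 change was 0.21 in AOM/DSS against control (SE 0.11, limma adjusted p = 0.101) and 0.21 in WMW-H against control (limma adjusted p = 0.109), and 0.00 between WMW-H and AOM/DSS. A call came from fitting only the compared groups in AOM/DSS against control (limma adjusted p = 0.041) and from leaving out WMW-H replicate 5, which raised WMW-H against control to 0.31 (limma adjusted p = 0.0156). Fragments per library ran from 27 to 61.

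The TWIST factors are basic helix-loop-helix proteins of mesenchyme, and their transcripts were the lowest of the members. Twist1 (ENSMUSG00000035799) read 0.349, 0.987, 0.547, 0.656 and 0.230 FPKM in control, 0.668, 0.820, 0.959, 0.547 and 0.656 in AOM/DSS, and 1.20, 1.10, 0.976, 1.26 and 1.39 in WMW-H. Every WMW-H library was above every AOM/DSS library, and all but replicate 3 were above the highest control. The mean log2 difference was 0.34 against AOM/DSS (exact permutation p = 0.00794, the smallest such a test can give) and 0.51 against control (exact permutation p = 0.0159), from group means of 0.55 ± 0.29, 0.73 ± 0.16 and 1.19 ± 0.16 FPKM. Between AOM/DSS and control the difference was 0.17 (exact permutation p = 0.278). In the limma fit without the limit on low values, the adjusted p values were 0.0164, 0.00121 and 0.213 in the same order. Fragments per library were few, 7 to 28 in control, 16 to 31 in AOM/DSS and 26 to 39 in WMW-H, and counting alone gives an SD of 37.8% at the 7 fragments of control replicate 5.

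Twist2 (ENSMUSG00000007805) read 0.427, 0.691, 0.461, 0.763 and 0.603 FPKM in control, 1.06, 1.117, 0.985, 0.712 and 1.19 in AOM/DSS, and 0.902, 0.984, 0.966, 0.751 and 0.735 in WMW-H. Only AOM/DSS replicate 4 and WMW-H replicates 4 and 5 reached into the control range. The log2 difference from control was 0.34 in AOM/DSS (exact permutation p = 0.0159) and 0.24 in WMW-H (exact permutation p = 0.0238). Between WMW-H and AOM/DSS it was -0.11 (exact permutation p = 0.183), and -0.16 without AOM/DSS replicate 4 (exact permutation p = 0.0317).

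**Figure D2:**
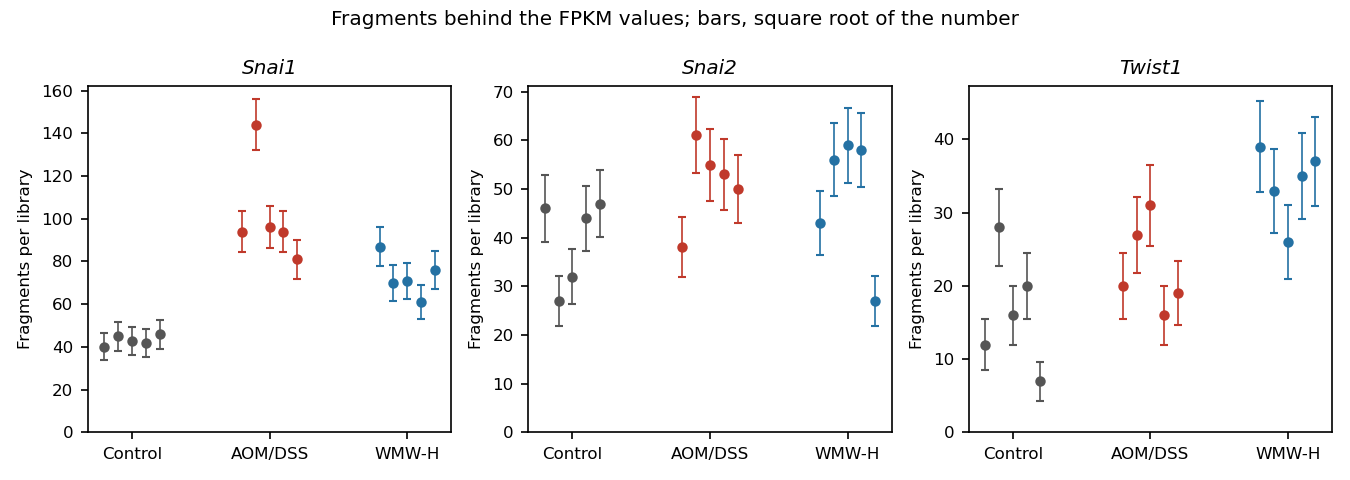
Fragments per library behind the FPKM values of Snai1, Snai2 and Twist1, the members with 1 annotated transcript; bars show the square root of the number. Snai1 rests on 40 to 46 fragments in control and 81 to 144 in AOM/DSS, and Twist1 rests on 7 to 39 fragments.

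The ZEB factors are zinc finger repressors of epithelial genes. Zeb1 (ENSMUSG00000024238) read 3.08, 2.47, 2.78, 3.07 and 6.78 FPKM in control, 2.09, 2.36, 2.44, 2.47 and 2.15 in AOM/DSS, and 3.34, 3.40, 3.002, 3.82 and 2.78 in WMW-H. Control replicate 5 was more than 2 times every other control, and each AOM/DSS library lay below the lowest control, the closest pair being 2.470 and 2.467 FPKM. The fall in AOM/DSS was a log2 change of -0.42 (SE 0.16, limma adjusted p = 0.0267), and -0.22 without control replicate 5 (limma adjusted p = 0.0201). It did not pass without AOM/DSS replicate 1 (-0.40, limma adjusted p = 0.0536) or replicate 5 (-0.41, limma adjusted p = 0.0503). All WMW-H libraries lay above all AOM/DSS libraries, with a log2 difference of 0.37 (SE 0.16, limma adjusted p = 0.0505) that was not called. The fit shares 1 spread over all groups, control replicate 5 included. The difference passed in 7 of 21 alternatives. Among them were the exact rank test (adjusted p = 0.0155) and the fit of only the compared groups (0.37, limma adjusted p = 0.000711). The fit without WMW-H replicate 5 (0.41, limma adjusted p = 0.0453) was another. Against control the log2 difference of WMW-H was -0.06 (limma adjusted p = 0.778), and 0.15 without control replicate 5 (limma adjusted p = 0.114).

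Zeb2 (ENSMUSG00000026872) read 4.71, 5.96, 3.87, 3.09 and 4.19 FPKM in control, 3.94, 3.48, 4.51, 3.597 and 4.26 in AOM/DSS, and 3.75, 5.39, 4.39, 4.73 and 4.23 in WMW-H. The 3 groups overlapped throughout. The log2 changes were -0.10 (limma adjusted p = 0.478), 0.15 (limma adjusted p = 0.272) and 0.05 (limma adjusted p = 0.725) in the 3 comparisons, none called. An antisense gene, Zeb2os, overlaps Zeb2 in GENCODE M21, and since the use of strand in the counting is not given in the sources used here, reads of the pair cannot be told apart.

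Vimentin, the intermediate filament of mesenchymal cells and leukocytes, had the largest fitted log2 change among the tested members in AOM/DSS, although its ratio of means was below the 2.32 of Snai1. Vim (ENSMUSG00000026728) read 75.4, 73.8, 75.2, 73.1 and 78.3 FPKM in control, 146, 142, 147, 146 and 146 in AOM/DSS, and 142, 137, 131, 131 and 136 in WMW-H. The 3 groups did not overlap. The mean rose from 75.2 ± 2.0 to 145 ± 2.11 FPKM, 1.93-fold, a log2 change of 0.94 (SE 0.03, limma adjusted p = 2.57e-15). In WMW-H it was 135 ± 4.46, still 1.80-fold above control (0.84, limma adjusted p = 3.82e-14) and below AOM/DSS by a log2 change of -0.10 (limma adjusted p = 0.00227). That last difference did not pass with size factors (-0.03, limma adjusted p = 0.26) or quantile normalization (-0.05, limma adjusted p = 0.077).

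Markers of macrophages and endothelium, cells that also hold vimentin, were summed beside it and were higher in AOM/DSS and WMW-H than in control. All 7 macrophage markers and 5 of 6 endothelial markers were called higher in AOM/DSS, as were 5 of 7 fibroblast markers with 2 lower. Of all tested genes 45.5% were called higher and 20.6% lower. Markers of T cells and of B and plasma cells mostly went the other way. Of 6 T cell markers 1 was called higher and 4 lower. Of 5 B and plasma cell markers none was called higher and 4 were lower. Ms4a1, 1 of those 4, passed the limit only through control. None of these defining markers was at 0, and their part in the Vim values was not tested.

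**Figure D3:**
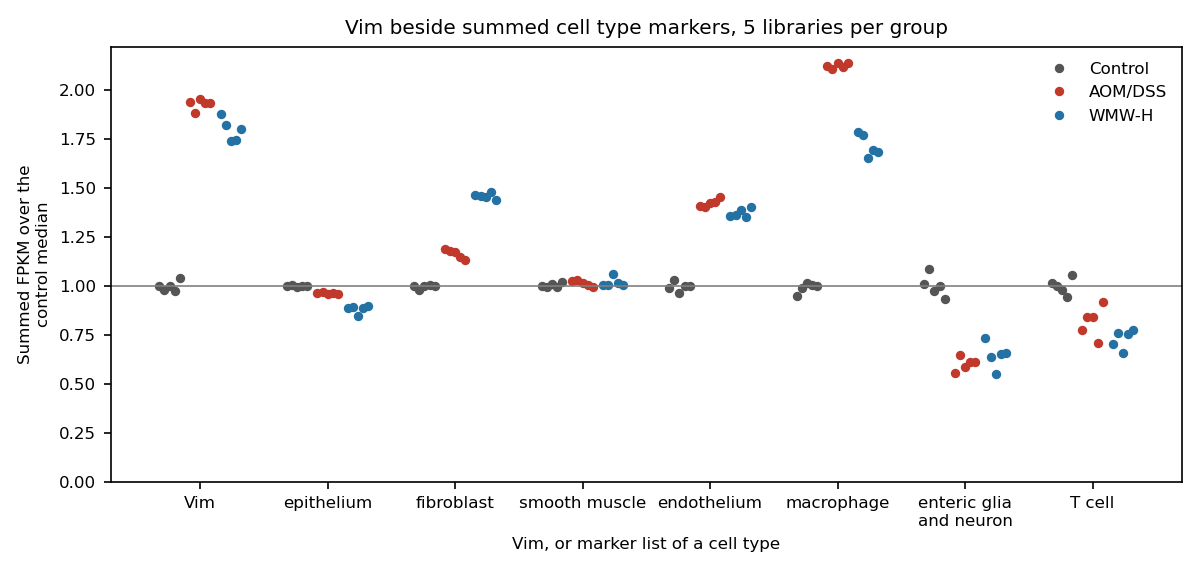
Vim and the summed FPKM of marker lists for other cell types in each library, relative to the control median. Vim and the macrophage sum are both higher in AOM/DSS than in control, whereas the fibroblast sum is highest in WMW-H at 305 to 313 FPKM. Of the 7 fibroblast markers, 4 were called higher and 3 lower in WMW-H against AOM/DSS, where 25.9% and 40.9% of all tested genes were.

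Cdh2 (ENSMUSG00000024304) encodes N-cadherin, also made by neurons, glia and smooth muscle. It read 1.68, 1.90, 1.93, 1.93 and 1.96 FPKM in control, 1.24, 0.972, 0.950, 1.17 and 0.912 in AOM/DSS, and 1.16, 1.303, 1.27, 1.64 and 1.63 in WMW-H. Each control lay above every AOM/DSS and WMW-H library, and WMW-H and AOM/DSS overlapped. The fall in AOM/DSS was a log2 change of -0.49 (SE 0.07, limma adjusted p = 1.07e-05), from 1.88 ± 0.11 to 1.048 ± 0.14 FPKM. WMW-H, at 1.40 ± 0.22, was 0.23 above AOM/DSS (limma adjusted p = 0.00966), a call not made by the exact rank test (adjusted p = 0.0509), and -0.27 from control (limma adjusted p = 0.00387). Markers of enteric glia and neurons, which also carry N-cadherin, summed to 29.0 to 33.8 FPKM in control, 17.24 to 20.04 in AOM/DSS and 17.1 to 22.8 in WMW-H. Their part in the Cdh2 values was not tested.

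Other cadherins were measured beside Cdh2. Of 7 listed, 5 were tested, and 4 were called higher and 1 lower in AOM/DSS, where 45.5% and 20.6% of all tested genes were. Cdh13 (T-cadherin) went from 3.45 ± 0.48 to 14.7 ± 0.41 and 6.91 ± 0.49 FPKM over control, AOM/DSS and WMW-H. Cdh5 (endothelial VE-cadherin) went from 7.01 ± 0.45 to 11.98 ± 0.35 and 10.97 ± 0.35, and Cdh1 (E-cadherin) from 222 ± 2.39 to 304 ± 3.94 and 268 ± 5.01. Cdh11 (mesenchymal OB-cadherin) was 2.30, 2.76 and 3.36 FPKM, and its call in AOM/DSS was not made with size factors (0.10, limma adjusted p = 0.171) or quantile normalization (0.03, limma adjusted p = 0.653). Cdh17 (LI-cadherin of intestinal epithelium) was 239, 226 and 264, the 1 called lower, a call not made with TPM. Cdh3 and Cdh6, at most 0.903 FPKM in group means, were under the limit.

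The 2 regulators of the epithelial state were called higher in AOM/DSS than in control and lower in WMW-H than in AOM/DSS, by small amounts. Esrp1 (ENSMUSG00000040728) read 78.4, 77.6, 77.6, 73.9 and 76.0 FPKM in control, 83.0, 82.0, 82.4, 79.8 and 80.0 in AOM/DSS, and 73.2, 71.1, 71.9, 70.6 and 74.3 in WMW-H. The AOM/DSS libraries were above all others, and only WMW-H replicate 5 exceeded the lowest control. The log2 change was 0.09 in AOM/DSS (SE 0.02, limma adjusted p = 0.004), a direction that flipped with size factors (-0.03, limma adjusted p = 0.238) and lay under the median change of all genes, 0.12. WMW-H was lower than AOM/DSS by -0.17 (SE 0.02, limma adjusted p = 6.65e-06) and than control by -0.085 (limma adjusted p = 0.00508).

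Grhl2 (ENSMUSG00000022286) read 9.72, 9.29, 8.08, 9.46 and 9.72 FPKM in control, 10.2, 11.5, 10.1, 10.7 and 11.99 in AOM/DSS, and 9.74, 9.92, 7.63, 8.58 and 8.80 in WMW-H. Each AOM/DSS library was above all control and WMW-H libraries, which overlapped one another. The log2 change was 0.21 in AOM/DSS (SE 0.07, limma adjusted p = 0.0116), which did not pass with size factors (0.10, limma adjusted p = 0.191) or quantile normalization (0.05, limma adjusted p = 0.55). WMW-H was lower than AOM/DSS by -0.26 (limma adjusted p = 0.00295) and differed from control by -0.05 (limma adjusted p = 0.565).

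**Figure D4:**
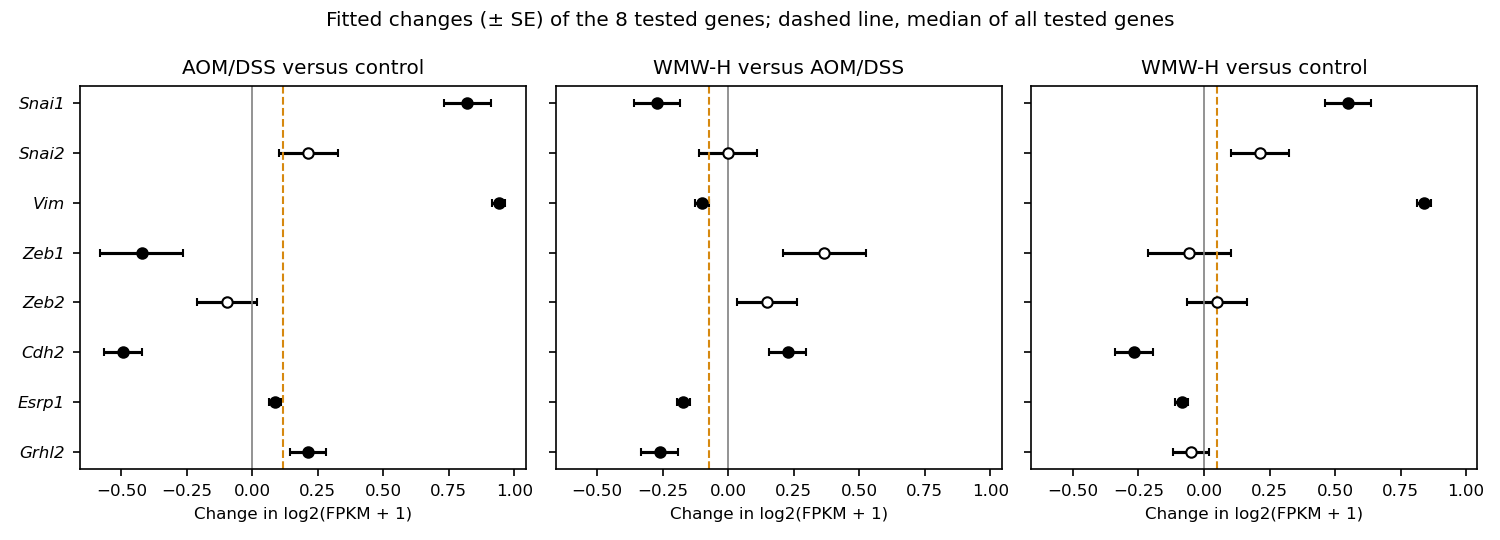
Fitted change in log2(FPKM + 1) with its SE for the 8 tested members in the 3 comparisons; filled points were called and the dashed line is the median of all tested genes. Vim and Snai1 have the largest rises in AOM/DSS against control, 0.94 and 0.82, and Cdh2 the largest fall, -0.49.

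The median of all tested genes moved by 0.12 in AOM/DSS against control and by 0.01 with size factors, so the members are also given relative to it. On that scale Snai1 stood at 0.70, Vim at 0.82, Zeb1 at -0.54 and Cdh2 at -0.61, whereas Esrp1 stood at -0.03 and Grhl2 at 0.10. The split of called genes moved with scaling as well: 68.9% of calls were higher as deposited, 51.3% with size factors and 47.5% with quantile normalization. In WMW-H against AOM/DSS that share was 38.8%, and 47.5% with size factors.

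Ordered by FPKM, Vim and Esrp1 were highest in control, with overlapping ranges, followed by Grhl2, Zeb2 and Zeb1, Cdh2, Snai1 and Snai2, and Twist2 and Twist1. In AOM/DSS Vim led Esrp1 without overlap, and the ranges of Zeb2 and Snai1 overlapped through the Snai1 value of replicate 2 alone. In WMW-H the order was Vim, Esrp1, Grhl2, Zeb2, Zeb1, Snai1, Cdh2, Snai2, Twist1 and Twist2. Of its neighbours, Zeb2 and Zeb1, Zeb1 and Snai1, Cdh2 and Snai2, Snai2 and Twist1, and Twist1 and Twist2 overlapped in range. The ratio of Vim to Esrp1 was 0.98 ± 0.03 in control, 1.78 ± 0.04 in AOM/DSS and 1.87 ± 0.06 in WMW-H, without overlap between control and the rest. The ratio of Cdh1 to Cdh2 was 118 ± 8.06, 294 ± 35.6 and 195 ± 27.4.

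The tested genes nearest in pattern to each called member were sought over all 15 libraries, by the root mean square distance of log2(FPKM + 1) centred on each gene's mean. For Vim they were Lamp2 (a lysosomal membrane protein), Col1a2 and Sparc, at 0.046, 0.052 and 0.053, where Vim itself spread by 0.423 about its mean. For Snai1 they were Csf2rb2, Gtf2ird1 and Nhsl1 at 0.111 to 0.127. For Zeb1 the nearest was Il7 at 0.201, with a spread of Zeb1 of 0.315, so none lay close. Esrp1 was nearest to Hook2, Fuca1 and Slc44a4, at 0.030 to 0.039, but itself spread by only 0.075. Cdh2 was nearest to Taf7, Slc5a1 and Fmo2, at 0.078 to 0.090 with a spread of 0.221. Grhl2 was nearest to Polr2d, Dhrs7 and Actr5, at 0.070 to 0.074 with a spread of 0.153. The distance is not scaled to the spread, so a member that varies little has near genes that also vary little.

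Among the other genes of the pathway, 5 of 7 tested transcription factors of the transition were called higher in AOM/DSS and none lower (1 with quantile normalization), where 45.5% and 20.6% of all tested genes were. Of the 5, Foxq1 and Foxc2 (Foxc2 is named after its values were seen) passed the limit only through groups where they were high, which partly fixes their direction. The other 5 tested factors, 3 of them called higher, had a median log2 change of 0.88, against 1.02 for all 7 and 0.12 for all genes. Foxq1 rose from 0.725 ± 0.10 to 6.41 ± 0.28 FPKM and was 2.44 ± 0.18 in WMW-H. Sox4 went from 6.76 ± 0.60 to 23.7 ± 0.88 and 15.1 ± 0.78, Tcf4 from 7.69 ± 0.30 to 20.5 ± 1.1 and 12.1 ± 1.02, and Tcf3, the gene of E2A, from 15.7 ± 0.82 to 29.7 ± 0.61 and 18.8 ± 1.08. In WMW-H against AOM/DSS 5 of the 7 were called lower, 3 of them besides Foxq1 and Foxc2, where 40.9% of all tested genes were.

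Of 17 tested mesenchymal genes, 15 were called higher in AOM/DSS and none lower (2 with size factors), where 45.5% and 20.6% of all tested genes were. Their median was 0.70, against 0.12 for all genes. Fn1 (fibronectin) was 36.8 ± 0.33, 110 ± 1.90 and 74.5 ± 1.94 FPKM over the 3 groups, and Col1a1 19.3 ± 0.46, 50.1 ± 1.52 and 42.8 ± 2.35. In WMW-H against AOM/DSS 10 were called lower and 5 higher, where 40.9% and 25.9% of all tested genes were. With size factors the counts were 6 and 6. TGF-beta is the ligand family that switches on the transition. Of 10 genes of its signalling, 8 were called higher in AOM/DSS and none lower (1 with size factors). The shares of all tested genes were again 45.5% and 20.6%, and the median of the 10 was 0.53, against 0.12 for all genes. The 8 include Smad7 and Skil, which restrain this signalling, with log2 changes of 0.73 and 0.76. Smad7 is named after its values were seen. Tgfb1 went from 13.8 ± 0.78 to 22.3 ± 0.43 and 13.8 ± 1.13 FPKM, and its receptor Tgfbr2 from 29.1 ± 0.74 to 44.4 ± 0.96 and 43.7 ± 1.36.

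Junction and keratin genes, the targets that the drivers repress in the textbook transition, were all tested. Of 21, 19 were called higher in AOM/DSS and 1, Krt8, lower, where 45.5% and 20.6% of all tested genes were. Their median of 0.19 was close to the 0.12 of all genes, and 11 were called higher with size factors. Cldn4 was 26.0 ± 2.15, 158 ± 3.27 and 66.8 ± 2.74 FPKM, and Lsr 63.2 ± 2.91, 107 ± 2.39 and 64.3 ± 2.06. Krt8 was 2709 ± 14.2, 2563 ± 18.8 and 2109 ± 54.9, and its fall in AOM/DSS turned to a rise of 0.26 with quantile normalization (limma adjusted p = 2.48e-06). In WMW-H against AOM/DSS 19 of the 21 were called lower and 1 higher, where 40.9% and 25.9% of all tested genes were. Their median there was -0.38, against -0.07 for all genes, and 19 were also called lower with size factors. Of 11 other epithelial regulators, 6 were called higher and 3 lower in AOM/DSS, near the shares of all genes. Without Grhl3, which passed the limit only through groups where it was high, 5 of 10 were higher. Elf3 went from 248.96 ± 3.86 to 336 ± 4.54 and 198 ± 9.49 FPKM, and Grhl3 from 0.169 ± 0.03 to 2.99 ± 0.28 and 1.54 ± 0.19. Against these, Ehf was 92.6 ± 3.14, 57.2 ± 1.89 and 77.7 ± 2.45, Klf4 150 ± 4.53, 119 ± 0.75 and 157 ± 2.92, and Ovol1 15.7 ± 0.67, 14.0 ± 0.54 and 10.8 ± 0.79.

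**Figure D5:**
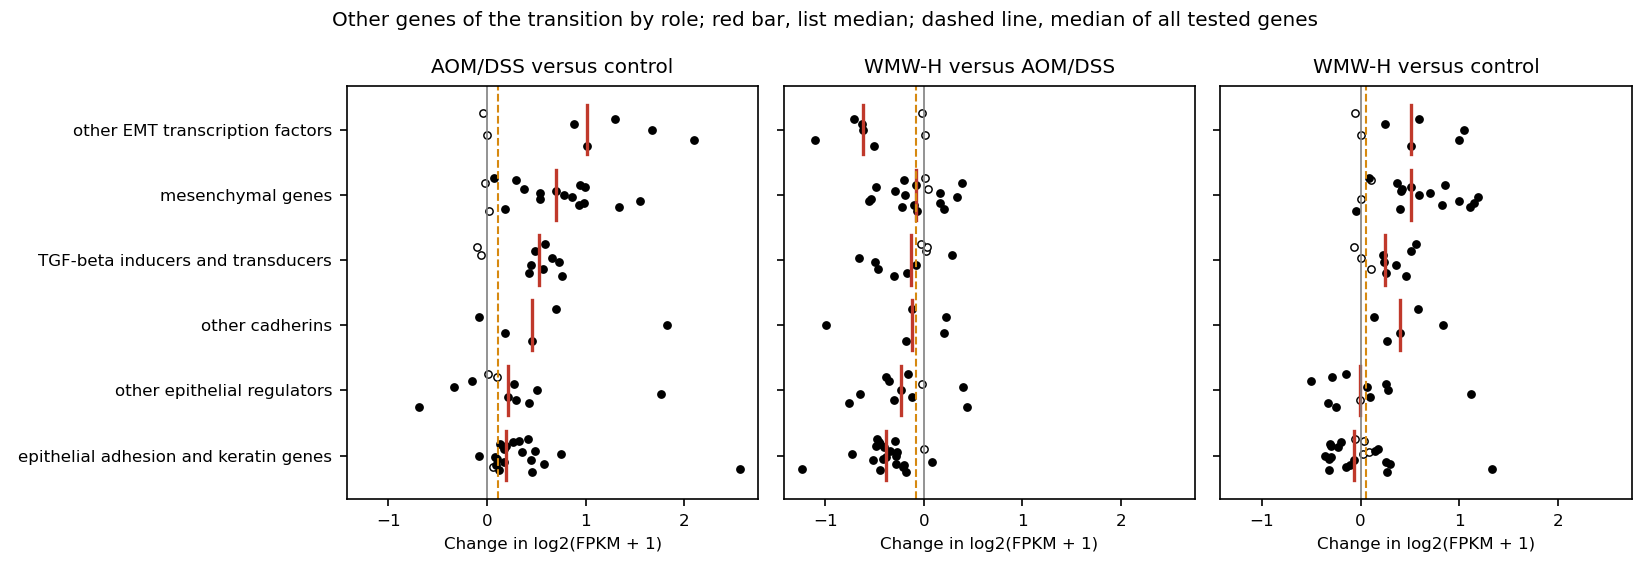
Fitted change in log2(FPKM + 1) of the genes of each related list in the 3 comparisons, filled where called; the red bar is the list's median and the dashed line that of all tested genes. In AOM/DSS against control the median of the other transcription factors is 1.02, or 0.88 without Foxq1 and Foxc2, which passed the limit only through groups where they were high, and that of the junction and keratin genes is 0.19.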

How the data were processed

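The authors deposited 1 table of FPKM values for 15 libraries of colon RNA, 5 per group; per the labels' protocols, these were NEBNext Ultra libraries of polyadenylated RNA, read on a NovaSeq 6000. The tools RSEM, HISAT2, StringTie 1.3.1, Bowtie2 2.2.8 and fastp 0.18.0 are listed in the submitters' processing notes, with no order; the build and annotation are not given in the sources used here. FPKM are not counts, so no count model was used. Depth was read from low values of 3328 genes with 1 transcript in GENCODE M21: at the depths found, 89.3% of 7785 such values were whole to within 0.1 fragment (20% by chance).

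Values were transformed to log2(FPKM + 1) from the deposited FPKM and 1 limma model (version 3.58.1, R 4.3.3) was fitted to all 15 libraries, with group means and empirical Bayes with trend. Tests were two-sided, and p-values were Benjamini-Hochberg adjusted over the 12917 genes that reached 1 FPKM in 5 or more libraries, with a threshold of 0.05. The fit was tested on simulated data. Other pseudocounts, limits, scalings (TPM, size factors, quantile), fits and left-out libraries were tried. The members and lists were chosen with earlier results of these data known. Besides the 10 members, up to 4 genes per list were named, those with the smallest p in AOM/DSS against control, plus called genes against the list's majority and all cadherins; for called members the 3 nearest genes were named. A gene that this rule takes is not reported here. Promoter windows are from RefSeq. Figures were drawn with matplotlib 3.10.9.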

Additional observations from a re-analysis of the deposited data

Results flagged for a closer look

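In 5 of 30 sets of 5 libraries (10 genes in 3 groups), 1 library lay far from the other 4, where chance marks about 1 in 20 sets, or 1.5 of 30. Zeb1 reached 6.777 FPKM in control replicate 5, with the other controls at 2.47 to 3.079; that library held 13 tested genes at 2 or more times the next highest of its group, against 3 to 11 in the other libraries. Without it, the Zeb1 log2 change in AOM/DSS against control was -0.22 (limma adjusted p = 0.0201) in place of -0.42.

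Snai1 reached 4.394 FPKM in AOM/DSS replicate 2, with the others at 2.81 to 3.229, and without it the rise was 0.74 (limma adjusted p = 2.16e-07) and the fall in WMW-H -0.19 (limma adjusted p = 0.033). Snai2 was 1.022 FPKM in AOM/DSS replicate 1, with the others at 1.37 to 1.493. Cdh2 was 1.684 FPKM in control replicate 1, with the others at 1.901 to 1.959, and its fall in AOM/DSS was -0.52 without that library (limma adjusted p = 1.86e-05). Grhl2 was 8.084 FPKM in control replicate 3, with the others at 9.294 to 9.72, and its rise was 0.17 without it (limma adjusted p = 0.0367).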

How the results depend on the processing

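Of 588 member values under other settings, 555 kept direction and side of the threshold, 9 lost it, 10 gained it and 14 changed sign. The causes were not tested. In AOM/DSS against control, 4 members were called higher, and 2 with size factors or quantile normalization; 2 were lower, and 1 to 2 when 1 library was left out. Quantile normalization gave 3765 genes higher and 4167 lower, against 5881 and 2658. In WMW-H against AOM/DSS, the 1 member called higher became 2 with a pseudocount of 0.1 or 0.5, no limit or a limit of 0.1 FPKM, TPM, quantile normalization or only the compared groups, and 3 with size factors, and was 1 to 2 with 1 library left out; the 4 lower became 2 with quantile normalization. In WMW-H against control, the 2 higher became 4 with no limit, a limit of 0.1 FPKM or TPM, and 2 to 3 with 1 library left out. Signs changed for Esrp1 in AOM/DSS against control with size factors (-0.033), for Snai2 in WMW-H against AOM/DSS with pseudocounts of 0.1 and 0.5 (-0.017 and -0.005) and TPM (-0.043), and for Zeb2 in WMW-H against control with quantile normalization (-0.033). With 1 library left out, values crossed 0 for Zeb2 in AOM/DSS against control (-0.188 to 0.003), Snai2 in WMW-H against AOM/DSS (-0.062 to 0.092) and, in WMW-H against control, Zeb1 (-0.144 to 0.147, above 0 without control replicate 5), Zeb2 (-0.041 to 0.15) and Grhl2 (-0.091 to 0.001); none of these 5 was called. Same-numbered libraries did not deviate together (0 of 15 correlations above 0.1, -0.047 to 0.03), and with the replicate block the members called were 4 and 2, 1 and 4, and 2 and 2, higher and lower, as without it, with 5849 and 2636, 3323 and 5251, and 4525 and 3073 genes. Depth limits Twist1, at 7 to 39 fragments per library, and Snai2, at 27 to 61.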

Other observations

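Markers of further cell types also differed between the groups and are given as values only. Markers of B and plasma cells summed to 539 to 567 FPKM in control, 225 to 251 in AOM/DSS and 362 to 417 in WMW-H. The higher sum in WMW-H than in AOM/DSS came from Jchain (log2 change 0.96), the 1 marker of 5 called higher there. The other 4 were called lower, 3 of them besides Ms4a1, which passed the limit only through control. Of all tested genes 25.9% were called higher and 40.9% lower in that comparison. T cell markers summed to 23.0 to 25.6, 17.2 to 22.3 and 15.96 to 18.8 FPKM, and mast cell markers to 27.9 to 31.0, 83.1 to 93.7 and 78.6 to 87.1. Among the mast cell markers Kit went against the sum, at 22.8 ± 0.70, 13.9 ± 0.50 and 17.9 ± 0.47 FPKM. Without Cpa3, which passed the limit only through groups where it was high, 2 of 3 were called higher and Kit lower in AOM/DSS. Of all tested genes 45.5% were called higher and 20.6% lower there. Adipocyte markers summed to 130 to 143, 100.8 to 111 and 67.5 to 74.0 FPKM. The part of these cells in the members' values was not tested.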
